A study of Oryza sativa with 4 samples.

Results

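PIP2-5, PIP2-7, TIP1-2 and TIP4-2 are 4 aquaporin genes of rice (Oryza sativa), 4 of the 25 aquaporin genes with a probe set and of 17905 genes with a probe set in all. The 4 were picked by name from a larger family, and they were selected on earlier results from these same arrays, so their levels and differences are given as a description, with no test. TIP1-2 is LOC4324303, TIP4-2 is LOC4324277, PIP2-5 is LOC4343121 and PIP2-7 is LOC4347729. The arrays were Affymetrix rice genome arrays hybridised with shoot RNA of seedlings that were 18 days old when they were put completely under water in a greenhouse. The groups were M202 after 1 day, M202 after 6 days, M202(Sub1) after 1 day and M202(Sub1) after 6 days, with 1 array in each. M202 is a japonica cultivar with little tolerance of flooding, and M202(Sub1) is that cultivar carrying an introgressed Sub1 tolerance locus. All 4 groups were submerged and no plants kept in air were compared, so a level before flooding is not part of these data. Plants sampled at 6 days were also older than those sampled at 1 day. Time under water and plant age therefore cannot be told apart in any difference between 6 days and 1 day. How many plants went into a sample is not given in the sources used here.

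Aquaporins are membrane channels that let water, and in some cases small uncharged solutes, cross a membrane. Plasma membrane intrinsic proteins (PIPs) sit at the cell surface and fall into a PIP1 and a PIP2 class, of which PIP2 proteins are the stronger water channels when expressed alone in frog oocytes. Tonoplast intrinsic proteins (TIPs) sit in the membrane of the vacuole, whose water uptake fills a growing plant cell. In a submerged shoot the leaf surface no longer loses water to air, and plants adjust aquaporin transcripts under many such changes of water status.

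Values are log2 expression values made by the authors with RMA, a method that removes background signal, gives all arrays the same distribution of values and combines the probes of each set into 1 value. A log2 difference of 1 is 2-fold. A level floor was set at the median of all values on the 4 arrays, 5.51, and a value under it is called low here. No measure of background went into this floor. Of 25 aquaporin genes with a probe set, 21 reached the floor on at least 1 array, among them PIP2-5, PIP2-7, TIP1-2 and TIP4-2. With 1 array in each group there is no replicate error, so the order of close values cannot be tested, and the number of arrays limits the precision of every difference. Because whole shoots were measured, fewer cells of a type and less RNA per cell cannot be told apart.

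The array medians lay between 5.48 and 5.54. Of 11 measured leaf markers, 10 were above the floor on every array, and the median over the 11 lay between 12.21 and 12.71. Of 7 measured root markers, 3 were above the floor on every array and 3 were under it on every array, LSI2 among the latter, and the median over the 7 lay between 5.22 and 6.06. Of 5 measured seed markers, 2 were above the floor on every array and 2 under it on every array. The former were GLUA2 (9.34 to 10.22) and RAG2 (6.31 to 6.59), and the latter GLUA1 and AMY1A. The 3′ probe set for actin exceeded the 5′ one by 3.12 on both M202 arrays, by 3.32 on the M202(Sub1) array at 1 day and by 3.46 on that at 6 days, and the part of this in any difference below was not tested.

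PIP2-5, a plasma membrane water channel gene on chromosome 7, was the aquaporin that differed most between the genotypes. The probe set that matches it alone read 9.05 in M202 at 1 day and 5.58 in M202 at 6 days. In M202(Sub1) it read 10.86 at 1 day and 8.06 at 6 days. The M202(Sub1) array was the higher one at each time, the 1-day array was the higher one in each genotype, and the M202 array at 6 days stood just above the floor.

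The genotype difference of PIP2-5, M202(Sub1) minus M202, was 1.81 at 1 day, which is 3.50-fold, and 35 of 15426 genes above the floor had a higher value. At 6 days it was 2.48, or 5.57-fold, and 38 genes had a higher value. Among all genes above the floor, the share with M202(Sub1) at least 2-fold above M202 was 0.778% at 1 day and 3.85% at 6 days. PIP2-5 was the 1 aquaporin of 21 that passed 2-fold in this direction at either time. The 1-day and 6-day genotype differences share no array, and 15 other genes had values at least as high as those of PIP2-5 at both times.

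PIP2-5 was also far lower at 6 days than at 1 day. The difference was -3.48 in M202, an 11.1-fold lower value, and 10 genes had a lower value. In M202(Sub1) it was -2.80, a 6.99-fold lower value, and 26 genes had a lower value. Among all genes above the floor, 8.62% were at least 2-fold lower at 6 days in M202 and 4.61% in M202(Sub1). These differences use the same arrays as the genotype differences and are not independent of them. At 6 days the M202(Sub1) array still read 8.06, closer to the 1-day M202 value of 9.05 than to the 6-day M202 value of 5.58.

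A further probe set is annotated to PIP2-5 and to PIP2-1 together, so it reports on both genes at once. It read 12.25 in M202 at 1 day and 12.00 at 6 days, and 12.35 and 12.11 in M202(Sub1). Its genotype differences were 0.10 at 1 day and 0.12 at 6 days, and its time differences -0.25 in M202 and -0.24 in M202(Sub1). All 4 signs were those of the PIP2-5 probe set, with much smaller sizes. They were also those of the brightest set of PIP2-1 alone, at 0.06, 0.09, -0.20 and -0.17. A dimmer set of PIP2-1 had genotype differences of the other sign, -0.44 and -0.89. The signs of the shared set therefore cannot be credited to PIP2-5. Averaged over both sets, the PIP2-5 genotype difference came to 0.95 at 1 day, under 2-fold, and to 1.30 at 6 days.

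PIP2-7, a second PIP2 gene, lies on chromosome 9 and showed a larger time difference than any other aquaporin. Its probe set, whose name marks transcripts of 1 gene, read 10.51 in M202 and 10.33 in M202(Sub1) at 1 day. At 6 days it read 5.29 in M202 and 5.99 in M202(Sub1). Both 1-day arrays were high and both 6-day arrays low, with the M202 array at 6 days under the floor.

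The time difference of PIP2-7 was -5.22 in M202, a 37.2-fold lower value at 6 days, and of the 15426 genes none had a lower value. With the 6-day value set to the floor it was 31.9-fold lower, so the exact size in M202 rests on a signal under the floor. In M202(Sub1) the difference was -4.33, or 20.2-fold, and 4 genes had a lower value. The time differences of the genotypes share no array. In both genotypes at once, 44 genes, or 0.285%, were at least 4-fold lower at 6 days, PIP2-5 and PIP2-7 among them, and 2 genes were at least 16-fold lower, of which PIP2-7 was 1.

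Between the genotypes PIP2-7 differed little at 1 day, by -0.19, close to the lower quartile of all genes at -0.19. At 6 days it was higher in M202(Sub1) by 0.70, or 1.62-fold, and 1158 genes had a higher value. That difference uses the M202 value under the floor, and with this value set to the floor it was 0.48.

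**Figure D1:**
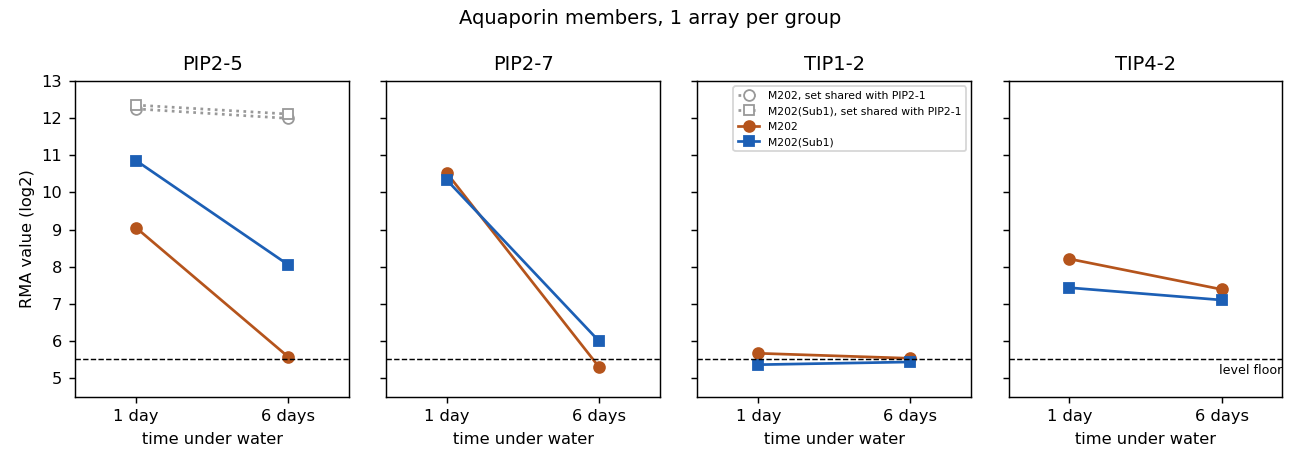
Log2 RMA values of PIP2-5, PIP2-7, TIP1-2 and TIP4-2 (vertical axis) after 1 and 6 days under water (horizontal axis) on the M202 arrays (circles) and the M202(Sub1) arrays (squares), 1 array per point. Open grey symbols are the probe set shared with PIP2-1, and the dashed line is the level floor at 5.51. PIP2-5 and PIP2-7 are lower at 6 days in both genotypes, the 2 PIP2-5 lines are 1.81 and 2.48 apart, and TIP1-2 stays at the floor.

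TIP4-2 encodes a tonoplast channel, lies on chromosome 1 and showed smaller differences of 1 sign. It read 8.21 in M202 at 1 day, 7.39 in M202 at 6 days, 7.44 in M202(Sub1) at 1 day and 7.11 in M202(Sub1) at 6 days. The M202 array at 1 day stood above the other three, which lay within 0.33 of each other. M202(Sub1) minus M202 was -0.78 at 1 day, a 1.71-fold lower value, and 345 genes, or 2.24%, had a lower value. At 6 days that difference was -0.29. The time difference was -0.82 in M202, where 12.6% of genes had a lower value, and -0.33 in M202(Sub1), where 22.8% did. No difference of TIP4-2 reached 2-fold, against 1.01% of all genes at least 2-fold lower in M202(Sub1) at 1 day and 2.18% at 6 days. The name of its single probe set marks possible cross-hybridisation with related sequences, so a signal from another gene in these values was not tested.

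TIP1-2, the other tonoplast channel gene, also lies on chromosome 1 and was near the floor on all 4 arrays. It read 5.67 and 5.54 in M202 at 1 and 6 days, and 5.36 and 5.44 in M202(Sub1). The M202 values stood just above the floor and the M202(Sub1) values just under it. The genotype differences were -0.31 at 1 day and -0.10 at 6 days, and the time differences -0.13 in M202 and 0.07 in M202(Sub1). The quartiles of all genes were -0.44 and 0.34 for the time difference in M202, and -0.29 and 0.29 for that in M202(Sub1), and TIP1-2 lay between the quartiles in both. Its genotype difference at 6 days also lay between the quartiles of all genes, -0.21 and 0.23, while that at 1 day lay under the lower quartile of -0.19, with 14.8% of genes lower. With the values under the floor set to the floor, the 1-day genotype difference was -0.16.

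The difference between the time differences, M202(Sub1) minus M202, was above 0 for each of the 4. It was 0.67 for PIP2-5, 0.88 for PIP2-7, 0.49 for TIP4-2 and 0.21 for TIP1-2. Of 15426 genes above the floor 8036 were also above 0, and of the 17 other aquaporins 10 were. The 4 were selected on these arrays, so their shared sign is only a description. None of the 4 reached 2-fold, and the share of all genes above the floor past 2-fold in this measure was 4.20% upward and 1.59% downward. For PIP2-7 the measure was 0.66 with the 6-day M202 value set to the floor.

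PIP2-5 differed from the PIP2 genes beside it on the chromosome. It lies between PIP2-4 and PIP2-1 in the gene order of RefSeq assembly ASM3414082v1, with no annotated protein-coding gene between them. PIP2-4 read 7.14 and 6.91 in M202 at 1 and 6 days and 6.50 and 6.41 in M202(Sub1), so its genotype differences of -0.64 and -0.50 had the sign opposite to those of PIP2-5. PIP2-1 read between 13.12 and 13.37 on its brightest probe set, and its genotype differences were 0.06 and 0.09. Another probe set of PIP2-1 read 7.81 and 6.98 in M202 and 7.37 and 6.09 in M202(Sub1), a genotype difference of -0.44 at 1 day and -0.89 at 6 days. The sets of PIP2-1 thus disagreed in sign between genotypes, and none of them showed the genotype difference of PIP2-5.

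Around PIP2-5, none of the 10 nearest measured genes was 2-fold apart between genotypes at either time, and their 1-day differences ran from -0.64 to 0.29. Of all genes, 0.778% were 2-fold higher in M202(Sub1) and 1.01% lower at 1 day, and 3.85% and 2.18% at 6 days. None of 10 is close to those shares. Around PIP2-7, 2 of 10 were at least 2-fold lower at 6 days in M202 and 1 of 10 in M202(Sub1), and all 10 lay below 0 in both genotypes, with medians of -0.55 and -0.47. Of all genes, 8.62% and 4.61% were 2-fold lower and 51.5% and 48.7% below 0. The lowest neighbour value there was -1.97, against -5.22 for PIP2-7.

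Of 8 annotated PIP2 genes 7 had a probe set, and the remaining ones of these stood high on their brightest set or under the floor and differed less. PIP2-2 read 12.33 and 11.85 in M202 and 12.04 and 11.17 in M202(Sub1), with time differences of -0.48 and -0.87. The name of that set marks possible cross-hybridisation. Its other set read 7.64 and 7.18 in M202 and 7.55 and 6.79 in M202(Sub1), with time differences of -0.45 and -0.76. PIP2-6 stayed between 13.10 and 13.42. PIP2-8 stayed between 4.07 and 4.25, under the floor on each array. All 6 PIP2 genes above the floor were lower at 6 days in both genotypes, with medians of -0.35 in M202 and -0.59 in M202(Sub1). The medians of all genes were -0.02 and 0.01, and 51.5% and 48.7% of all genes lay below 0. The count and the medians include PIP2-5 and PIP2-7, which were selected on these arrays. Besides PIP2-2, the time differences of the others were -0.20 and -0.17 for PIP2-1, -0.22 and -0.09 for PIP2-4, and -0.12 and -0.32 for PIP2-6. The PIP2-1 values are those of its brightest set, whose name marks possible cross-hybridisation. A dimmer set of PIP2-1 alone had -0.83 in M202 and -1.28 in M202(Sub1), the latter past 2-fold, and another bright set had -0.11 and -0.09. With each gene on its brightest set of its own, PIP2-5 and PIP2-7 were the 2 of these 6 that reached 2-fold in each genotype.

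Among the tonoplast genes, TIP4-1 was closest to TIP4-2 by name. It read 12.90 and 12.07 in M202 and 12.56 and 11.67 in M202(Sub1), with time differences of -0.82 and -0.89, while a second, dim set of the gene stayed under the floor. TIP1-1, the relative of TIP1-2, read between 13.98 and 14.07 on its brighter set and was flat across all 4 arrays. Of 7 TIP genes above the floor none was 2-fold lower with time, and 1 was 2-fold higher in M202, where 8.62% of all genes were lower and 7.44% higher, so these counts do not set the TIP genes apart. The 1 gene was TIP3-1, known as a seed-type tonoplast aquaporin, which read 5.08 and 6.47 in M202 and 5.15 and 5.43 in M202(Sub1), under the floor on 3 arrays.

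Outside the PIP2 and TIP classes 1 gene passed 2-fold. PIP1-3 read 7.94 and 7.51 in M202 and 8.33 and 6.95 in M202(Sub1), a time difference of -0.43 and -1.38. PIP1-1 and PIP1-2 stayed within 0.19 and 0.09 over the 4 arrays. NIP2-2, a nodulin 26-like intrinsic protein gene picked after its values were seen, came near 2-fold in all comparisons. It read 9.60 and 8.62 in M202 and 8.63 and 7.72 in M202(Sub1), with genotype differences of -0.97 and -0.89 and time differences of -0.99 and -0.91. The name of its probe set also marks possible cross-hybridisation.

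Counted over the family, the time difference in M202 was at least 2-fold lower for 2 of 21 aquaporins and higher for 1, where 8.62% of all genes were lower and 7.44% higher. In M202(Sub1) 3 of 21 were lower and none higher, against 4.61% and 6.25% of all genes. Below 0 were 17 of 21 in M202 and 13 of 21 in M202(Sub1), with medians of -0.20 and -0.16, where 51.5% and 48.7% of all genes lay below 0, so the share in M202(Sub1), 61.9%, was nearer to that of all genes. Between genotypes 1 of 21 was 2-fold higher in M202(Sub1) and none lower at 1 day, where 0.778% of all genes were higher and 1.01% lower. At 6 days 1 was higher and 1 lower, near the shares of all genes, 3.85% and 2.18%. Below 0 were 16 of 21 at 1 day and 17 of 21 at 6 days, where the share of all genes was 52.5% and 49.6%. All these counts include PIP2-5, PIP2-7, TIP1-2 and TIP4-2, which were selected on these arrays. Of the 17 other aquaporins, none was 2-fold lower and 1 higher with time in M202, and 1 lower and none higher in M202(Sub1). Between genotypes none was 2-fold apart at 1 day, and 1 was lower and none higher at 6 days. Below 0 were 13 and 10 of the 17 for time and 13 and 15 for genotype. These 17 had median time differences of -0.14 and -0.09 and median genotype differences of -0.06 and -0.17.

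**Figure D2:**
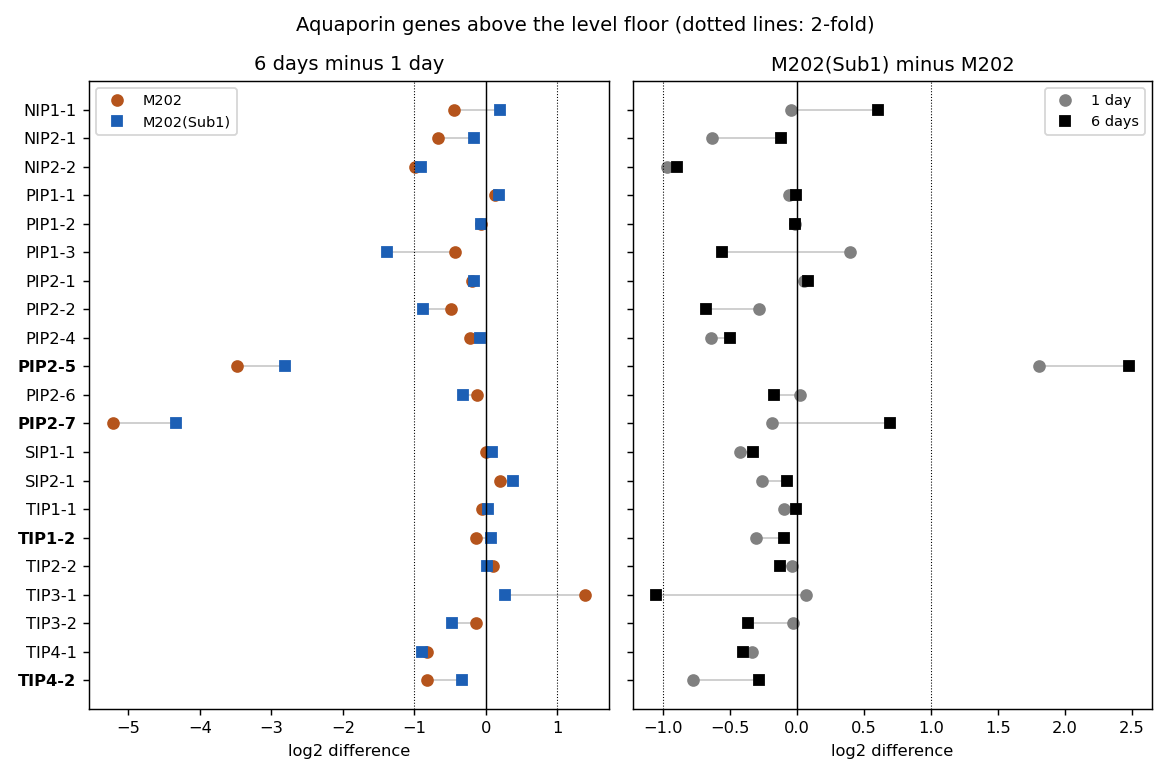
Log2 differences (horizontal axis) of the 21 aquaporin genes above the level floor (vertical axis, PIP2-5, PIP2-7, TIP1-2 and TIP4-2 in bold): 6 days minus 1 day in M202 (circles) and M202(Sub1) (squares) on the left, and M202(Sub1) minus M202 at 1 day (circles) and 6 days (squares) on the right. Each point is the difference of 2 single arrays and dotted lines mark 2-fold. PIP2-7 and PIP2-5 lie far to the left for time, and PIP2-5 alone lies past 2-fold to the right for genotype.

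**Figure D3:**
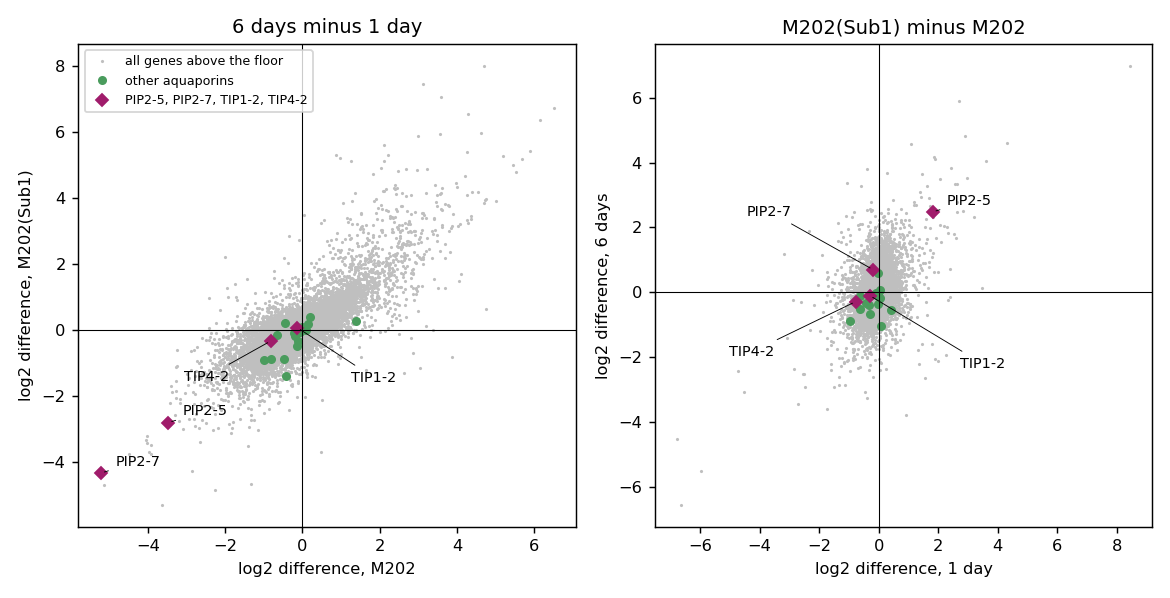
Log2 differences of 15426 genes above the floor (grey dots), the other aquaporins (green circles) and the 4 named genes (diamonds). The left panel sets the time difference in M202 against that in M202(Sub1), and the right panel the genotype difference at 1 day against that at 6 days, pairs that share no array. PIP2-7 has the lowest value of all genes on the M202 axis at -5.22, and PIP2-5 lies toward the upper right of the genotype panel at 1.81 and 2.48.

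The profile of each gene over the 4 arrays, centred on its own mean, was compared with those of 1997 other genes above the floor that have an informative symbol. Likeness was the root mean square distance in log2 units, over only 4 points that share arrays. The gene nearest to PIP2-5 was the nonsymbiotic hemoglobin gene NSHB2, at a distance of 0.36. It read 7.75 and 5.11 in M202 and 10.29 and 6.90 in M202(Sub1). The next was PDC1, a pyruvate decarboxylase gene of ethanol fermentation, at 0.51, with 8.92 and 4.86 in M202 and 11.55 and 8.21 in M202(Sub1). The third was the alcohol dehydrogenase gene Adh2 at 0.63, with 8.12 and 6.08 in M202 and 9.73 and 7.60 in M202(Sub1). All of these had the array order of PIP2-5, with M202(Sub1) at 1 day highest, M202 at 1 day next and M202 at 6 days lowest. They were picked for closeness to PIP2-5 on these arrays, so the shared order largely follows from the choice. On the M202 array at 6 days NSHB2 and PDC1 were under the floor.

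No gene with an informative symbol came close to PIP2-7. The nearest, GLT2, stood at a distance of 1.07 with 10.59 and 7.82 in M202 and 10.66 and 8.12 in M202(Sub1), so its time differences of -2.77 and -2.54 were much smaller. The mitotic cyclin gene CYCB2 (LOC4342121) followed at 1.11 and PIP2-5 at 1.25. TIP1-2 was nearest to the cellulose synthase gene CESA8 (0.01), OsTLP3 (0.02) and the kinase gene GSK4 (0.03), and flat profiles of this kind are close to many others. TIP4-2 was nearest to ADIPOR1 (0.05), the homeobox gene hox29 (0.05) and the tryptophan decarboxylase gene TDC2 (0.06). TDC2 read 9.78 and 8.86 in M202 and 8.83 and 8.56 in M202(Sub1), with the M202 array at 1 day highest. Between the 4 aquaporins the distance was 0.33 for TIP1-2 and TIP4-2, 1.25 for PIP2-5 and PIP2-7, and 1.85 to 2.39 for each pair of a PIP2 and a TIP gene.

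**Figure D4:**
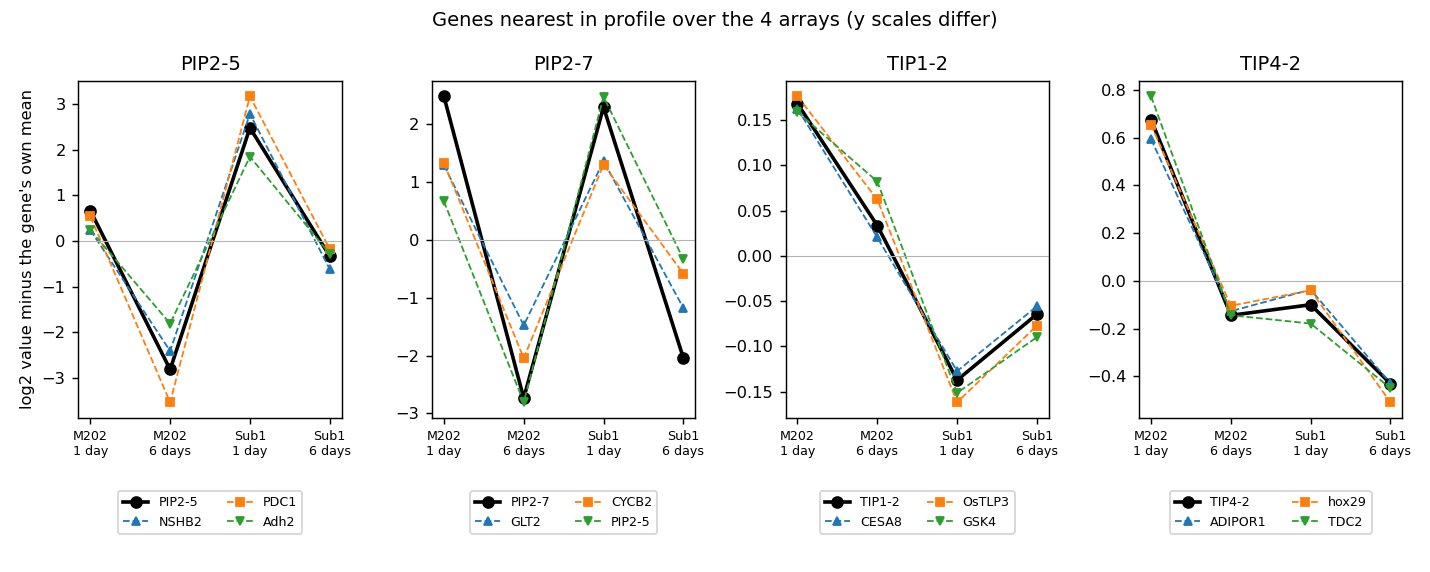
Log2 values minus each gene's own mean (vertical axis, scales differ between panels) on the 4 arrays (horizontal axis, Sub1 standing for M202(Sub1)), for PIP2-5, PIP2-7, TIP1-2 and TIP4-2 (black) and the 3 genes nearest to each in profile (dashed). NSHB2, PDC1 and Adh2 run beside PIP2-5 at distances of 0.36 to 0.63, while GLT2 and CYCB2 cover a smaller range than PIP2-7.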

How the data were processed

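Shoot RNA of 4 samples, 1 per combination of genotype and time, was labelled with biotin for 1-colour Affymetrix arrays, per the labels' protocols. The deposited table holds log2 values that the authors made with RMA, per the submitters' processing notes; for its version, and for which arrays went into 1 normalization, no source used here gives an answer. RMA hides overall shifts in RNA amount and compresses differences near background. Of 57258 rice probe sets, 22436 had 1 gene, 95 several and 34727 no name in the platform annotation used. The 17905 genes were matched by gene number to RefSeq assembly ASM3414082v1, used for names and gene order only. A gene was represented by its probe set with the highest mean. Genes reaching the 50th percentile of all values, 5.51, on any array were kept (15426). No test was run, since each group has 1 array. Genes were counted at 2-fold. Aquaporins were found by symbol or synonym (PIP, TIP, NIP, SIP with class and number, or LSI1), 29 in all, of which 25 had a probe set. Named genes were the 4 members, all PIP2, TIP1 and TIP4 genes, aquaporins 2-fold apart in any comparison, and the 3 genes nearest in profile to each member. Expansins and vacuolar proton pumps were listed as companions. The members and lists were chosen with earlier results of these data known. Alternatives were the mean of all probe sets, leaving out possibly cross-hybridising sets, median centring, quantile normalization, other floors and other folds. The calculations were checked on simulated data. Python 3.11.15, numpy 2.4.6 and pandas 2.3.3 were used.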

Additional observations from a re-analysis of the deposited data

Results flagged for a closer look

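6 named aquaporins above the floor had differences of opposite sign for the same comparison in the 2 genotypes or at the 2 times, and with 1 array per group none of these contrasts was tested. The share of all genes with opposite signs is not given here, so the count is not read as a result. For M202(Sub1) minus M202 at 1 day and 6 days, PIP1-3 had 0.39 and -0.56, PIP2-6 had 0.026 and -0.17, PIP2-7 had -0.19 and 0.70 and TIP3-1 had 0.066 and -1.05. For 6 days minus 1 day in M202 and in M202(Sub1), TIP1-1 had -0.055 and 0.032 and TIP1-2 had -0.13 and 0.07. Outside the named genes, NIP1-1 had opposite signs in both, with -0.04 and 0.60 between genotypes and -0.45 and 0.20 over time. SIP1-1 had -0.0021 and 0.0892 over time. For PIP2-7 and TIP3-1 a value under the floor enters the difference, and the TIP1-2 values lie at the floor.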

How the results depend on the processing

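No paired analysis was possible because each group has 1 array. Under median centring and quantile normalization the differences of PIP2-5, PIP2-7, TIP1-2 and TIP4-2 kept their sign and their side of 2-fold, with PIP2-5 from 1.80 to 1.83 at 1 day and PIP2-7 from -5.21 to -5.17 in M202. Taking the mean of all probe sets changed none of them, since each gene has 1 set of its own, and TIP4-2 has no value without possibly cross-hybridising sets. A mean with the set shared with PIP2-1, added after the data were seen, gave PIP2-5 genotype differences of 0.95 and 1.30 and time differences of -1.87 in M202 and -1.52 in M202(Sub1). The 2 aquaporins 2-fold apart between genotypes at 6 days became 1 without cross-hybridising sets, with a 75th percentile floor, and with low values set to the floor (added after the data were seen). In each case this was because TIP3-1 no longer counted. That stricter floor left 561 of all genes, against 930. The aquaporins 2-fold apart over time in M202 went from 3 to 2 in the same settings, again as TIP3-1 no longer counted. Under quantile normalization they were 4. At 1.5-fold the counts of aquaporins were 5 and 6 between genotypes at 1 and 6 days and 7 and 6 over time in M202 and M202(Sub1), and those of all genes 1010, 2547, 5338 and 3800. At 4-fold they were 0 and 1 aquaporins between genotypes and 2 over time in each genotype, and 47, 132, 517 and 423 of all genes.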

Other observations

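Expansins, which loosen cell walls as cells take up water and enlarge, gave 21 genes above the floor from 29 with a probe set. In M202, 4 were at least 2-fold lower and none higher at 6 days, where 8.62% of all genes were lower and 7.44% higher. The median was -0.27, and EXLA3 went from 7.62 to 6.24 and EXPA7 from 9.87 to 8.57. In M202(Sub1) none was 2-fold apart with time, where 4.61% of all genes were lower and 6.25% higher, and the median was -0.07, with EXPA7 at 9.76 and 10.06. At 6 days EXPA5 was higher in M202(Sub1), with a difference of 1.52, and EXPB11 lower, with -1.26. These examples were chosen after their values were seen, and the difference between the genotypes was not tested. The single vacuolar proton pump gene that matched by name, VATP-P1, read 12.16 and 12.28 in M202 and 12.01 and 12.10 in M202(Sub1).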
